A study of Mus musculus with 8 samples.

Results

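Urothelium is the lining of the renal pelvis, ureter and bladder, and 10 of its genes were followed here in kidney RNA of mice: the uroplakin genes Upk1a, Upk1b, Upk2, Upk3a and Upk3b, the keratin genes Krt5, Krt14 and Krt15, the transcription factor gene Trp63 and the surface antigen gene Psca. They were chosen by name, and all 10 had a row among the 42256 genes of the count table. The 8 kidneys were from adult males on a mixed background (129S1/Sv x C57BL/6). Every mouse had been given aristolochic acid, a plant toxin of the proximal tubule, at 3 mg/kg each day for 5 days, and its kidney was taken 2 weeks later. The CDH11+/+ and CDH11-/- groups had 4 mice each and differed in the genotype given for cadherin-11, an adhesion protein of mesenchymal cells. The comparison asks whether the urothelium genes differ with that label. Unx/AngII, an injury named in the title of the series, does not appear in the sample labels, which were followed, and no sample was from an uninjured mouse.

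Uroplakins are membrane proteins that pack into rigid plaques on the luminal face of the outermost urothelial cells and help to make that surface impermeable to urine. Upk1a and Upk1b encode tetraspanins that pair with the products of Upk2 and Upk3a, and Upk3b encodes a relative of the Upk3a product that is also known from mesothelium, the covering of organs. Krt5, Krt14 and Krt15 encode keratins of basal epithelial cells, and Trp63 encodes p63, the transcription factor that maintains such cells. In a normal kidney, the lining of the pelvis and papilla is where these proteins are known to occur.

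Libraries held 10675309 to 18539479 counts. Cdh11, the targeted gene, was at 58.0 to 75.6 CPM (counts divided by the TMM-scaled library size) in the libraries labelled CDH11+/+ and at 89.9 to 117.2 CPM in those labelled CDH11-/-, a rise of 0.69 ± 0.11 (log2, SE, edgeR adjusted p = 0.0243). The transcript was not lower under the CDH11-/- label, and every direction below is that of the labels. All 8 markers of kidney segments were counted in every library, the lowest being the podocyte gene Nphs1 with at least 251 counts. CDH11+/+ replicate 1 was the smallest library, and leaving it out raised the number of genes called from 114 to 1004, so results that rest on it are given with and without it. Reads of whole kidney cannot tell fewer urothelial cells from less RNA per cell.

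The urothelium genes were present in every library at a low level, and none passed the test of genotype. Other than Psca they lay between 0.076 and 7.56 CPM. The filter on low counts kept 9 of the 10, leaving out Krt14, which reached the needed 0.739 CPM in 3 libraries. None of the 9 passed in either direction at an adjusted p of 0.05 by the edgeR quasi-likelihood test (Benjamini-Hochberg over 15852 genes): 0 rose, beside 0.372% of all genes tested, and 0 fell, beside 0.347% (0.719% in both directions). DESeq2 and limma-voom also called 0. On simulated counts, the edgeR fit recovered 28.6% of 21 changes of 1 log2 unit at 1 to 5 CPM. It recovered 0% of 3 under 1 CPM and 92.3% of 26 at 5 to 20 CPM. Upk2 averaged under 1 CPM, Psca was in the 5 to 20 CPM range, and the other tested genes averaged 1 to 5 CPM. Each simulated gene kept its own spread, so the 92.3% need not hold for Psca. Psca varied by 29.4% within groups, where the common biological variation of the fit was 13.5%. A result of 0 called therefore does not show that these genes were unchanged. An unadjusted p under 0.05 was reached by 3 of the 9 (Upk3b, Krt15 and Psca), beside 14.1% of all genes. The log2 fold change was positive in 7 and negative in 2 of the 9, with a median of 0.44, beside 47.8% positive and a median of −0.0080 over all genes tested.

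**Figure D1:**
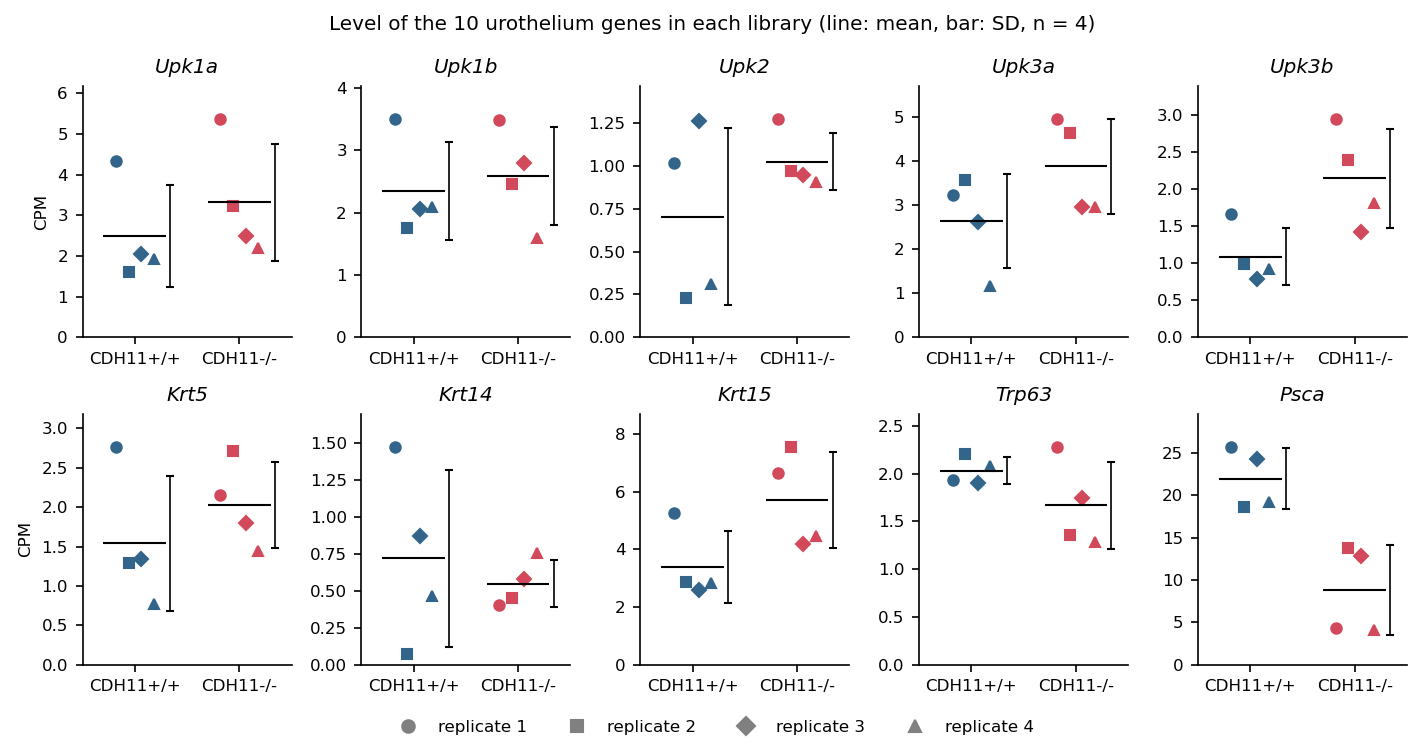
Level (CPM, linear axis from 0) of each of the 10 urothelium genes in the 4 libraries of each label; each symbol is a library, lines are group means and bars are SD (n = 4). Groups overlap in every panel except Psca, and CDH11+/+ replicate 1 is the highest library of its label in 7 of the 10 panels.

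The RefSeq table of GRCm38.p6 held a window for 5 of the genes (Upk1a, Upk3a, Upk3b, Krt5 and Krt14), and Upk1b, Upk2, Krt15, Trp63 and Psca had none there. The window of Krt14 lies inside the gene as GENCODE M21 gives it, near the start of its shorter transcript, and is not used here. The other 4 are shown because their genes passed the filter and are compared over the libraries below. Each runs 5′ to 3′ on the strand of the gene, from 250 bases before its RefSeq start to 50 bases after it, with motif matches on either strand in capitals. GENCODE M21 starts Upk1a at 30612847, upstream of the RefSeq start, so more than these 50 bases of the Upk1a window lie inside the gene.
Upk1a, chr7:30612685-30612984, minus strand: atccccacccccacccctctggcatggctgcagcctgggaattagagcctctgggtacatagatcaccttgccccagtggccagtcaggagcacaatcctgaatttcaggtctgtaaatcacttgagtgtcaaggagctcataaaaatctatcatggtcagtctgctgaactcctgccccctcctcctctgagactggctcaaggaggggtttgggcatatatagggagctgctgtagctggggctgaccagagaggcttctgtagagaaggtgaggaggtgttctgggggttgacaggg
Upk3a, chr15:85016891-85017190, plus strand: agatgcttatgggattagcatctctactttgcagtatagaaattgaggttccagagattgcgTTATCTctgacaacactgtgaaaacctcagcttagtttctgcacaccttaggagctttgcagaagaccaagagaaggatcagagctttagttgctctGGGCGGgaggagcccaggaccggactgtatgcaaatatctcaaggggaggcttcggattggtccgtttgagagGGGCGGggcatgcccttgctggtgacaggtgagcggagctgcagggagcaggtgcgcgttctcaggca
Upk3b, chr5:136038246-136038545, plus strand: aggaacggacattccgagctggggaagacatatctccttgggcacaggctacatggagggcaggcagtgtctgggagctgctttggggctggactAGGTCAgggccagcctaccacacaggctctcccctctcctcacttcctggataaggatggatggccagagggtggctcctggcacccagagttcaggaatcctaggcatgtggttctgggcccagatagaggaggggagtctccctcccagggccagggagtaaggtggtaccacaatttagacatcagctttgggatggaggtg
Krt5, chr15:101712856-101713155, minus strand: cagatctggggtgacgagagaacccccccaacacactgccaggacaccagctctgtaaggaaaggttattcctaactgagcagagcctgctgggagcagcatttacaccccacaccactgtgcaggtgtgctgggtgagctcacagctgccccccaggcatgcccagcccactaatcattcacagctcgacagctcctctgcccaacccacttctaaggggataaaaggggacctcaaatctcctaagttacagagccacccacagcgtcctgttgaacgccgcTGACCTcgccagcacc

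The motifs searched were the TATA box TATAAA, the GATA motif AGATAA, the forkhead motif TGTTTAC, the GC box GGGCGG and the nuclear receptor motif AGGTCA, all on both strands. AGGTCA, the repeat unit of elements bound by PPAR and RXR receptors, was in the Upk3b and Krt5 windows, and 16.2% of 32544 promoters of the same length held it. Upk3a held the GATA motif (11.2% of all promoters) and 2 GC boxes (35.9%). None of the 4 windows held TATAAA (13.6% of all) or TGTTTAC (3.66%), which says only that these letters are not in these windows.

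Among the genes of the urothelial plaque, Upk1a (ENSMUSG00000006313, GRCm38 chromosome 7, 30603092 to 30612847) was at 4.34, 1.60, 2.06 and 1.93 CPM in CDH11+/+ replicates 1 to 4 and at 5.37, 3.23, 2.48 and 2.20 CPM in CDH11-/- replicates 1 to 4. Replicate 1 was the highest library of each label, and the groups overlapped. The means of 2.48 ± 1.25 and 3.32 ± 1.44 CPM (SD, n = 4 each) gave a log2 fold change of 0.44 ± 0.37 (SE, 95% interval −0.38 to 1.25, edgeR quasi-likelihood adjusted p = 0.649). It was 0.84 without CDH11+/+ replicate 1, 0.27 without CDH11+/+ replicate 2 and 0.12 without CDH11-/- replicate 1.

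Upk1b (chromosome 16, 38773184 to 38800328), the other tetraspanin, was at 3.51, 1.75, 2.06 and 2.08 CPM in the libraries labelled CDH11+/+ and at 3.49, 2.46, 2.80 and 1.59 CPM in those labelled CDH11-/-. The lowest and the highest of all 8 values were in CDH11-/- replicate 4 and CDH11+/+ replicate 1. The log2 fold change was 0.16 ± 0.30 (SE, 95% interval −0.49 to 0.80, edgeR adjusted p = 0.858). Its direction turned to −0.0080 without CDH11-/- replicate 1. It was 0.41 without CDH11+/+ replicate 1, 0.04, 0.10 and 0.10 without CDH11+/+ replicates 2, 3 and 4, 0.33 without CDH11-/- replicate 4 and 0.33 with limma-voom. Upk1b has 2 annotated transcripts, and the authors' normalization divided its counts by factors of 0.579 to 1.32 times the median factor of the library. With these factors as offsets the log2 fold change was 0.49 (edgeR adjusted p = 0.701).

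Upk2 (chromosome 9, 44452715 to 44454976), the partner of Upk1a, was the rarest plaque gene, with 3 to 19 counts in a library. It was at 1.02, 0.228, 1.27 and 0.308 CPM in the libraries labelled CDH11+/+ and at 1.28, 0.970, 0.950 and 0.909 CPM in the others. CDH11+/+ replicates 2 and 4 lay below all other libraries, and replicates 1 and 3 were among the CDH11-/- values. The log2 fold change of 0.56 ± 0.47 (SE, 95% interval −0.48 to 1.59, edgeR adjusted p = 0.647) rested on single CDH11+/+ libraries: leaving out replicate 3 gave 1.03, leaving out replicate 2 gave 0.26, and leaving out replicate 4 gave 0.31. It was 1.02 with limma-voom.

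Upk3a (chromosome 15, 85017141 to 85022547), the partner of Upk1b, was at 3.23, 3.57, 2.61 and 1.16 CPM in the libraries labelled CDH11+/+ and at 4.97, 4.65, 2.96 and 2.95 CPM in those labelled CDH11-/-. CDH11-/- replicates 1 and 2 were above every library labelled CDH11+/+, and the other CDH11-/- libraries were within their range. The log2 fold change was 0.56 ± 0.32 (SE, 95% interval −0.15 to 1.26, edgeR adjusted p = 0.47), and 0.31 without CDH11+/+ replicate 4. Summed over Upk1a, Upk1b, Upk2 and Upk3a, the plaque genes held 5.47 to 12.1 CPM in the libraries labelled CDH11+/+ (median 7.57) and 7.65 to 15.1 CPM in those labelled CDH11-/- (median 10.2).

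Upk3b (ENSMUSG00000042985, chromosome 5, 136038496 to 136046487) had the largest positive difference of the 9 tested. It was at 1.66, 0.988, 0.791 and 0.925 CPM in the libraries labelled CDH11+/+ and at 2.95, 2.39, 1.43 and 1.82 CPM in those labelled CDH11-/-. CDH11-/- replicates 1, 2 and 4 were above every library labelled CDH11+/+, and replicate 3 was below CDH11+/+ replicate 1, so the groups overlapped. Means of 1.09 ± 0.388 and 2.15 ± 0.669 CPM (SD, n = 4 each) differed by 1.97-fold, a log2 fold change of 0.98 ± 0.33 (SE, 95% interval 0.26 to 1.70). The adjusted p was 0.216 (edgeR quasi-likelihood) and 0.0516 without CDH11+/+ replicate 1, where the log2 fold change was 1.25. Its paralog Upk3bl was at −0.22 ± 0.53 (log2, SE, edgeR adjusted p = 0.89).

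Because Upk3b is also made by mesothelium, markers of that tissue were read beside it. Of 8 listed markers, 7 had a row, 3 were tested, and 0 passed. Mesothelin (Msln) was at 2.64 ± 1.25 and 3.66 ± 0.891 CPM (SD, n = 4 each; log2 fold change 0.48 ± 0.32, edgeR adjusted p = 0.548). Gpm6a, the most abundant of the 7, was at 49.5 ± 23.8 and 34.1 ± 14.4 CPM (log2 fold change −0.54 ± 0.45, edgeR adjusted p = 0.658). Wt1 was at 14.99 ± 1.92 and 18.4 ± 0.553 CPM (0.29 ± 0.10, edgeR adjusted p = 0.238). Its groups did not overlap, as in 7.33% of all genes tested. The untested markers did not share a direction. Lrrn4 had 1, 0, 1 and 2 counts in the libraries labelled CDH11+/+ and 4, 5, 5 and 5 in those labelled CDH11-/-, and Rspo1 had 3, 2, 1 and 3 against 8, 4, 6 and 8. Bnc1 had 0, 3, 0 and 0 against 0, 1, 0 and 0, and Calb2 had 0, 0, 3 and 2 against 0, 1, 1 and 0. The summed level of the 7 markers was 40.2 to 95.3 CPM and 47.0 to 76.7 CPM, most of it from Gpm6a and Wt1, of which podocytes also express Wt1. Their part in the level of Upk3b was not tested.

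Among the basal genes, Krt15 (ENSMUSG00000054146, chromosome 11, 100131758 to 100135928) was the most abundant keratin of the set. It was at 5.26, 2.89, 2.61 and 2.85 CPM in the libraries labelled CDH11+/+ and at 6.65, 7.56, 4.17 and 4.47 CPM in those labelled CDH11-/-. All 4 CDH11-/- libraries were above CDH11+/+ replicates 2 to 4, and CDH11+/+ replicate 1 fell among them. Means of 3.40 ± 1.24 and 5.71 ± 1.66 CPM (SD, n = 4 each) differed by 1.68-fold, or 0.76 ± 0.27 on the log2 scale (SE, 95% interval 0.16 to 1.36, edgeR adjusted p = 0.244). Krt15 was the only one of the 9 to pass in any alternative: without CDH11+/+ replicate 1 it rose by 1.04 (edgeR adjusted p = 0.0294; adjusted p 0.0294 to 0.542 over 18 alternatives), in a fit that called 6.25% of all genes, 3.08% as higher and 3.17% as lower (0 of the 9 were lower). The authors' factors for Krt15, which has 2 annotated transcripts, were 0.668 to 1.22 times the library median, and with them as offsets the value was 0.57 (edgeR adjusted p = 0.503).

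Krt5 (chromosome 15, 101707070 to 101712898), the keratin that pairs with Krt14 in basal cells, was at 2.77, 1.29, 1.34 and 0.771 CPM in the libraries labelled CDH11+/+ and at 2.15, 2.72, 1.79 and 1.44 CPM in the others. The highest of all 8 was CDH11+/+ replicate 1, and the 3 lowest were the other libraries of its label. The log2 fold change of 0.41 ± 0.37 (SE, 95% interval −0.39 to 1.22, edgeR adjusted p = 0.667) was 0.84 without CDH11+/+ replicate 1, 0.19 without CDH11+/+ replicate 4, 0.24 without CDH11-/- replicate 2 and 0.76 with limma-voom. Of the distinct 50-base windows of its transcript, 8.52% also occur in Krt6a, Krt6b or gene models, so the split of reads between these genes is uncertain.

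Krt14 (chromosome 11, 100203162 to 100207548) was too low for the test. It had 16, 1, 11 and 6 counts in the libraries labelled CDH11+/+ and 6, 7, 11 and 10 in those labelled CDH11-/-, or 0.721 ± 0.599 and 0.548 ± 0.158 CPM (SD, n = 4 each). The CDH11+/+ libraries spanned all the CDH11-/- values (two-sided exact permutation p = 0.657, where the smallest possible is 0.0286). Its windows shared with Krt16 and Krt17 made up 13.9%, and those genes had at most 4 and 10 counts in any library.

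Trp63 (chromosome 16, 25683763 to 25892102) was the steadiest gene of the set. It was at 1.94, 2.20, 1.90 and 2.08 CPM in the libraries labelled CDH11+/+ and at 2.28, 1.36, 1.74 and 1.29 CPM in those labelled CDH11-/-. The libraries labelled CDH11+/+ differed little, while CDH11-/- replicate 1 was above all of them and the other CDH11-/- libraries below. The log2 fold change was −0.28 ± 0.25 (SE, 95% interval −0.83 to 0.27, edgeR adjusted p = 0.67), −0.45 without CDH11-/- replicate 1 and −0.17 without CDH11-/- replicate 4. Its coefficient of variation within groups, pooled over both labels and taken on their joint mean, was 18.3%. That was no larger than the 19.7% of counting error alone. By label, the SD was 0.140 CPM on a mean of 2.03 (CDH11+/+) and 0.457 CPM on a mean of 1.67 (CDH11-/-). Counting alone would give 12.4% for Krt15 and 15.7% for Upk1a, where the spread was 32.1% and 46.5%.

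Psca (ENSMUSG00000022598, chromosome 15, 74714839 to 74717069) encodes a small surface protein anchored in the membrane by a lipid, known from urothelium, prostate and stomach. It was at 25.7, 18.6, 24.3 and 19.2 CPM in the libraries labelled CDH11+/+ and at 4.37, 13.8, 12.9 and 4.09 CPM in those labelled CDH11-/-. All 4 CDH11-/- libraries lay below every library labelled CDH11+/+, and among them replicates 1 and 4 were far below replicates 2 and 3. Means of 21.96 ± 3.58 and 8.79 ± 5.29 CPM (SD, n = 4 each) gave a log2 fold change of −1.30 ± 0.42 (SE, 95% interval −2.28 to −0.32), which did not pass (edgeR quasi-likelihood adjusted p = 0.24, and 0.114 to 0.46 over 18 alternatives). Psca was the only one of the 9 tested whose labels did not overlap; over all genes tested 7.33% did not overlap, 3.74% with the CDH11-/- libraries lower and 3.59% with them higher. Its within-group coefficient of variation, pooled over both labels, was 29.4%, beside 6.95% from counting.

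**Figure D2:**
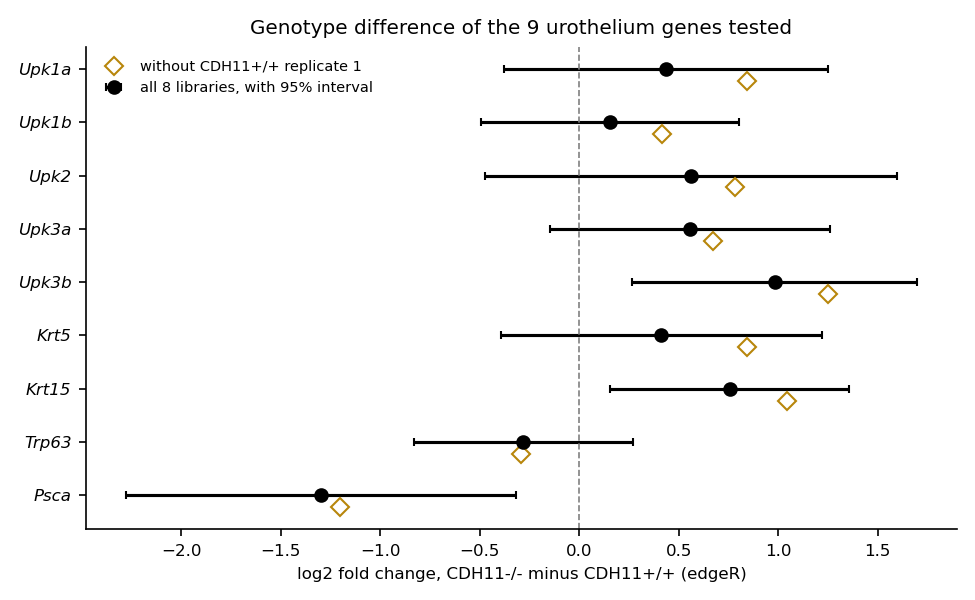
Log2 fold change (CDH11-/- minus CDH11+/+) of the 9 urothelium genes tested; black points and bars are the edgeR value and 95% interval over all 8 libraries, and open diamonds are the value without CDH11+/+ replicate 1. The intervals of Upk3b, Krt15 and Psca do not cross 0 before adjustment, and leaving out the library moves each uroplakin and keratin value upward.

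Per length, in CPM per kilobase of exon, the order of the levels was led by Psca at 17.9 ± 9.52 (mean and SD over 8 libraries). Upk3a (2.99 ± 1.09), Krt15 (2.58 ± 1.04) and Upk1a (2.04 ± 0.933) came next, then Upk1b (1.18 ± 0.355), Krt5 (0.812 ± 0.324), Upk2 (0.799 ± 0.364), Upk3b (0.459 ± 0.215), Krt14 (0.361 ± 0.237) and Trp63 (0.220 ± 0.0438). Only Psca was separated from its neighbour, with its lowest library (4.76) above the highest of Upk3a (4.55). All other neighbours had overlapping ranges, although Upk1a was above Upk1b in 8 of 8 libraries. Krt5 was above Upk2 in 4 of 8. The order was the same with the longest transcript as length.

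**Figure D3:**
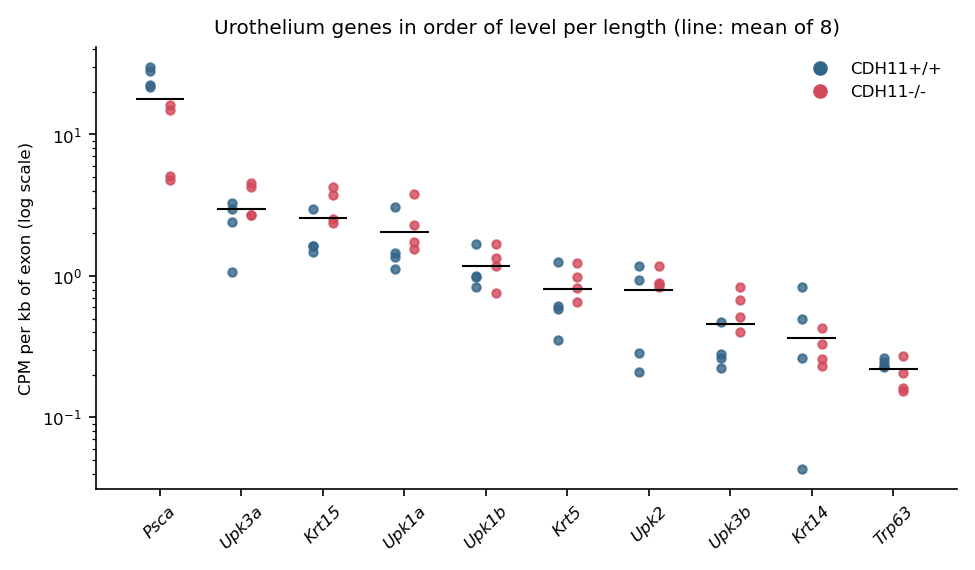
Level per length (CPM per kilobase of exon, log axis) of the 10 urothelium genes in each library, in order of the mean over 8 libraries (line); blue points are libraries labelled CDH11+/+ and red points those labelled CDH11-/-. Psca stands above the rest, and its CDH11-/- libraries are its lowest.

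Beyond the label, single libraries stood high or low in several of the genes. CDH11+/+ replicate 1 was the highest of its label in 7 of the 10 genes, where it was the highest for 32.4% of all genes tested. CDH11-/- replicate 1 was the highest of its label in 6 of 10 (25.1% of all genes), and CDH11-/- replicate 4 the lowest in 7 of 10 (30.2%). Likeness was measured as the root mean square difference of centred log2 CPM over the 8 libraries, among 13682 named protein-coding genes of at least 1 CPM. Upk3b and Krt15 were each other's nearest gene, at 0.16, where Upk3b itself spread by 0.58. They remained among each other's 3 nearest without CDH11+/+ replicate 1. For Krt15, the fourth and sixth nearest genes were Snx31, a sorting nexin that binds uroplakins, and Grhl3, a transcription factor of urothelial differentiation. Krt5 was at rank 23 and Upk1a at rank 34. Other urothelial genes were further from Krt15: Rab27b at rank 512, Upk3a at 638 and Upk1b at 671. Krt7 was at rank 3142, Pparg at 4611 and Krt20 at 5177 of 13681. All values come from the same 8 libraries, and low counts widen the spread of each gene. The measure is not scaled to that spread, so it mixes size with pattern, and these ranks are a description.

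The 3 genes nearest to each gene of the set by the same measure were mostly outside urothelial lists. Some genes of the set ranked close behind them. Upk1a had Upk1b at rank 8, Krt15 at 21 and Upk3b at 36. Krt5 had Krt15 at rank 7 and Upk3a at 36, and Upk3a had Krt5 at 8. Other pairs were far apart: Upk1a had Upk3a at rank 3585, and Upk1b had Krt15 at 8428 and Upk3b at 11168. Krt15 was followed after Upk3b by Aldh1a3, which makes retinoic acid, and Tmod2, and Upk3b after Krt15 by Adgrd1 and Layn. Upk1a was nearest to Tnfrsf19, Col22a1 and Smad9, Upk1b to Nxpe5, Fcgr4 and Myom1, and Upk3a to Tigd3, Cbln2 and Gpr31b. Krt5 was nearest to Nrn1, Klhl4 and Cd300ld5, and the summed plaque genes to Epor, Mkx and Lum. These differences were 0.15 to 0.31. Many of these neighbours changed when CDH11+/+ replicate 1 was left out, and no other library was left out for this measure. The 3 nearest kept 2 of 3 for Upk1a and Krt15, and 0 of 3 for Krt5 and Psca. They kept 1 of 3 for Upk1b, Upk3a, Upk3b, Trp63 and the summed plaque genes. Trp63 and Psca were far from Krt15 by this measure. For Trp63 the nearest were Ggt7, Slc34a2 and Sema3b, and Krt15 was at rank 13311 of 13681. For Psca the nearest genes, Urah, Pcdhga10 and Slc13a4, were 0.44 to 0.49 away, and Krt15 was at rank 13458. The measure grows with the spread of a gene, which was 0.96 for Psca, 0.52 for Krt15 and 0.27 for Trp63.

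**Figure D4:**
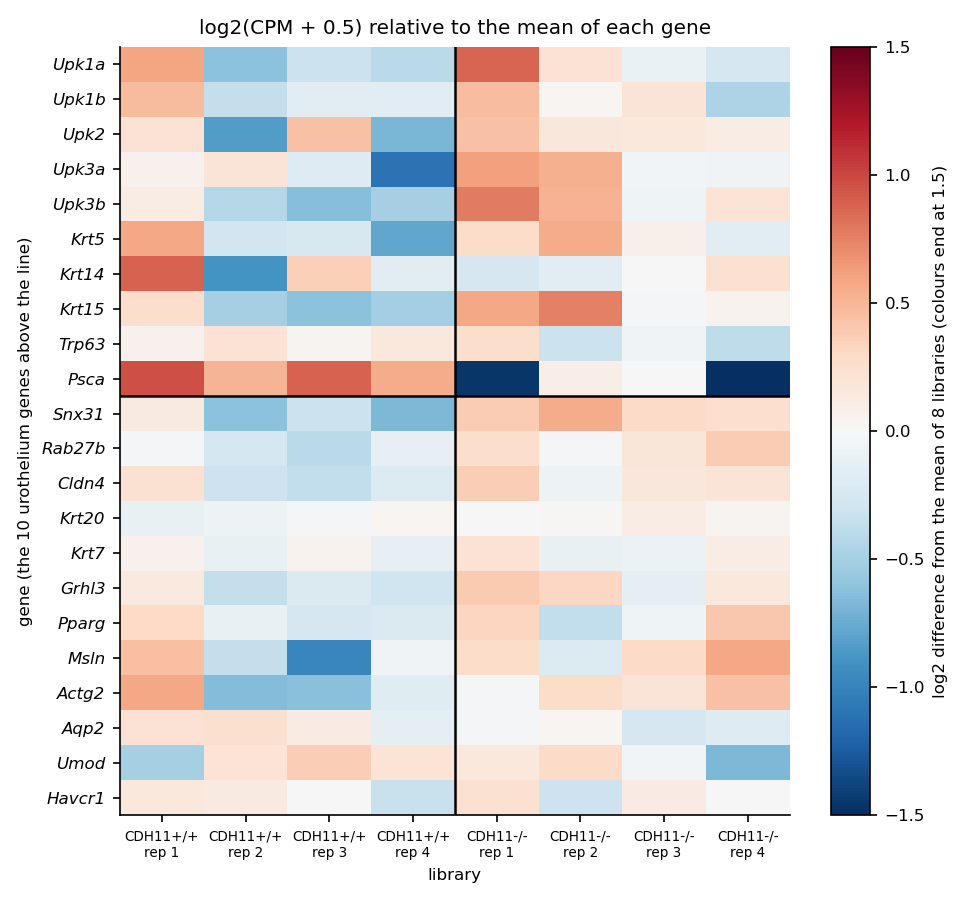
Level of the 10 urothelium genes (above the horizontal line) and of 12 other genes in each library, as log2(CPM + 0.5) relative to the mean of each gene over the 8 libraries; red is above and blue below that mean, and colours end at 1.5. CDH11+/+ replicate 1 and CDH11-/- replicates 1 and 2 are red in most uroplakin and keratin rows, and Psca has the opposite sign in CDH11-/- replicate 1.

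Other genes of the superficial urothelium gave a mixed picture. Of 10 listed, 10 were tested and 0 passed, with 7 positive values and a median log2 fold change of 0.08. Snx31 was at 2.12, 1.06, 1.42 and 1.002 CPM in the libraries labelled CDH11+/+ and at 2.62, 3.04, 2.43 and 2.35 CPM in the others. Snx31 was the 1 gene of these 10 whose groups did not overlap, beside 7.33% of all genes tested. Its log2 fold change was 0.91 ± 0.27 (SE, edgeR adjusted p = 0.177). Rab27b, which moves uroplakin vesicles to the surface, was at 0.42 ± 0.14 (edgeR adjusted p = 0.216). Krt20 and Krt7, which kidney tubules can also make, were near 0 at 0.09 ± 0.06 and 0.06 ± 0.08, at 83.1 and 155.3 CPM in the libraries labelled CDH11+/+.

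Of 18 genes of basal epithelium, 12 were tested and 0 passed, with 9 positive values and a median of 0.18. Collagen XVII (Col17a1), an anchor of basal cells, had the largest difference at −0.80 ± 0.24 (log2, SE, edgeR adjusted p = 0.173), and the Notch ligand gene Jag2 was at 0.31 ± 0.10 (adjusted p = 0.203). Krt17, Krt6a, Krt16, Krt13, Dsc3 and Dsg3 were below the filter, with at most 10 counts in any library. Of 10 transcription factors of urothelium, 10 were tested and 0 passed, with a median of 0.0024. Elf3 (−0.22 ± 0.07, edgeR adjusted p = 0.206) and Rxra (−0.17 ± 0.07, adjusted p = 0.298) had the smallest p. Elf3 was the 1 transcription factor of the 10 whose groups did not overlap, with CDH11-/- lower. Of the 12 basal genes tested, 2 did not overlap (Jag2 and Perp, both with CDH11-/- higher). Over all genes tested, 7.33% did not overlap, 3.59% with CDH11-/- higher and 3.74% with CDH11-/- lower. Pparg (0.18 ± 0.24), Grhl3 (0.44 ± 0.24) and Foxa1 (0.19 ± 0.59) did not pass either. Of 9 signal genes, 7 were tested and 0 passed (median 0.05), with Wnt7b at 0.32 ± 0.11 (edgeR adjusted p = 0.206) and Bmp4 at 0.17 ± 0.07 (adjusted p = 0.272).

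Markers of tissue that could come with the pelvis were read in the same fit. Of 10 smooth muscle genes of the pelvis and ureter, 8 were tested and 0 passed, 7 were positive and the median was 0.25. Their summed level was 247.5 to 307.5 CPM in the libraries labelled CDH11+/+ and 259.4 to 321.5 CPM in the others. Smtn gave the largest part of it, with means of 143.2 and 152.3 CPM. Myocd and Tbx18 were below the filter, with at most 18 and 14 counts in any library. Myh11 was at 0.43 ± 0.17 (edgeR adjusted p = 0.31) and Cnn1 at 0.39 ± 0.27 (adjusted p = 0.561). Actg2, the gamma actin of smooth muscle, had 15, 4, 4 and 8 counts against 11, 16, 18 and 16, so CDH11+/+ replicate 1 was the highest of its label here too. Under the CDH11-/- label Actg2 was lowest in replicate 1 (0.739 CPM) and highest in replicate 4 (1.21 CPM), on these few counts. Myh11, with at least 477 counts in a library, was highest in replicate 1 of each label (49.4 and 68.7 CPM). The summed list was highest in CDH11+/+ replicate 1 and CDH11-/- replicate 3. Of 10 collecting duct and papilla genes, all were tested and 0 passed (median 0.02), with sums of 722.0 to 806.1 and 641.9 to 811.8 CPM, Aqp2 at −0.22 ± 0.10 (edgeR adjusted p = 0.332) and Aqp3 at −0.15 ± 0.09 (adjusted p = 0.486). The part of the amount of pelvis or papilla in each kidney piece was not tested.

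Other stratified or glandular tissue was near absent. Pbsn, Svs2, Svs4 and Svs5 of the male accessory glands had 0 counts in all 8 libraries. The skin genes Krt1, Krt4, Dsg1a and Flg together had 2 to 8 counts in a library, and Krt10, the 1 skin gene tested, was at −0.30 ± 0.17 (log2, SE, edgeR adjusted p = 0.456). Injury markers did not pass either: of 8, 0 passed and the median was −0.09, with Vcam1 at −0.46 ± 0.10 (edgeR adjusted p = 0.0744), Cdkn1a at 0.30 ± 0.11 (adjusted p = 0.263), Havcr1 at 0.03 ± 0.13 and Lcn2 at −0.27 ± 0.24. Of the 8 kidney markers 0 passed (median −0.17), with Nphs1 at 0.57 ± 0.13 (edgeR adjusted p = 0.0744), the megalin gene Lrp2 at −0.73 ± 0.21 (adjusted p = 0.191) and Umod at −0.13 ± 0.24.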

How the data were processed

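Kidney RNA-seq of 8 mice was deposited as whole-number counts for each Ensembl gene. The authors also deposited a normalized signal in count units. Per the submitters' processing notes the tools included DRAGEN and DESeq2 and the build was mm10; for versions, annotation and strand use, the sources used here give nothing. The deposited signal is the count divided by factors that differ between genes (33.1% of factors of 14730 genes lay within 1% of the library median), so the counts may be rounded estimates. There were 0 columns of other samples. Names and coordinates came from GENCODE M21 (42170 of 42256 identifiers named; 111 of 112 listed symbols matched).

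Counts were tested with edgeR 4.0.16 (R 4.3.3): TMM scaling, the edgeR filter, quasi-likelihood with robust moderation, label as the only term, threshold 0.05. A standard error is the fold change over the square root of F; intervals are unadjusted. A prior count of 2 entered log2 CPM for likeness. Replicates are mice numbered in order of deposit. Genes and lists were chosen with earlier results of these data known. Named are the 10 genes, Cdh11, fixed landmarks, from each list the 2 with the smallest p, and the 3 nearest genes of each. Upk3bl, Gpm6a, Lrrn4, Rspo1, Bnc1, Calb2, Perp, Smtn and others given by count alone were chosen after their values were seen. Alternatives used DESeq2 1.42.0, limma 3.58.1 and sva 3.50.0; the fit was tested on simulated data. Pooled over both labels, the spread within groups exceeded counting error for each of the 10 genes except Trp63. In a single label this need not hold, as for Upk2 under CDH11-/- (SD 0.168 on a mean of 1.03 CPM, 28.6% from counting).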

Additional observations from a re-analysis of the deposited data

Results flagged for a closer look

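Of 20 groups of 4 libraries (10 genes, both labels), 3 held a library that Dixon's test set apart, its gap to the nearest being most of the range of its group, where chance gives about 1 in 20. Upk1a was at 4.34 CPM in CDH11+/+ replicate 1, above the other libraries of its label. Krt15 was at 5.26 CPM in the same library. Upk2 was at 1.28 CPM in CDH11-/- replicate 1, the highest of its label, with 19 counts beside 15, 18 and 12. The SD of that group, 0.168 CPM on a mean of 1.03, was below the 28.6% that counting alone would give.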

How the results depend on the processing

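Of the 9 genes tested, 0 passed under each alternative except the fit without CDH11+/+ replicate 1, where 1 did (Krt15); leaving out each library in turn gave 0 to 1. Over all genes the count of 114 became 208 with no filter, 520 with DESeq2, 679 with limma-voom, 54 with limma on the authors' normalized values (pseudocount 1), 50 with the authors' factors as offsets (library medians where a count was 0) and 1619 with 1 surrogate variable, and 26 to 1004 as each library was left out (31 and 26 without CDH11+/+ replicates 2 and 4, 38, 72, 41 and 56 without CDH11-/- replicates 1 to 4, and 1004 without CDH11+/+ replicate 1); the cause was not tested. The value of Upk1b reversed to −0.0080 without CDH11-/- replicate 1, and leaving out each library gave −0.0080 to 0.41. No other log2 fold change of the 9 changed sign in 17 or 18 alternatives. No paired analysis was possible because the labels give no replicate numbers shared between the genotypes. Depth limits these genes: Krt14 had 1 to 16 counts in a library and Upk2 had 3 to 19.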
